A study of Bos taurus with 34 samples.

Results

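The cytochrome P450 genes of cattle liver were taken as all genes whose symbol in the authors' deposited table begins with CYP and a family number. This gave 35 genes (33 distinct symbols, since CYP3A5 and CYP4F2 each name a pair of genes) of 14161 genes compared. Of these, 23 belong to families 1 to 4 and 12 to families 7 and above. Another 10 P450 genes of the count tables' annotation were not among the genes compared: CYP2F1, CYP2W1, CYP4X1, CYP11B1, CYP17A1, CYP19A1, CYP24A1, CYP26C1, CYP27C1 and CYP46A1. One more gene, called CYP2J2 in that annotation, appears under the symbol LOC530929 in the authors' deposited table, and is described apart.

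The libraries were made from liver of Senepol-labelled cattle that differ in the SLICK1 allele of PRLR, which encodes a truncated prolactin receptor and gives a short, sleek coat. In the TruSeq experiment, SLICK daughters carried 1 copy of the allele (10 samples, 5 each from the bulls Blanco and Lone Ranger). FREE daughters of the same bulls carried 0 copies (8 samples, 7 of Lone Ranger and 1 of Blanco). A second, SMARTer experiment held animals with 2 copies (S2, 11 samples) and with 1 copy (S1, 5 samples), and is not analysed here. Columns of single libraries carry animal names that no sample label holds, so values per animal and depth per library are not given, and every comparison rests on the authors' deposited table of SLICK against FREE. Positive log2 fold changes are read from the name of that table as higher in SLICK. Both genotypes occur under both sires, in uneven numbers. The part of sire in the values was not tested, since libraries could not be matched to labels, and no source used here says whether the deposited test adjusted for it.

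P450 enzymes are heme proteins that insert an oxygen atom into fat-soluble molecules, with electrons passed on by a reductase in the endoplasmic reticulum or by a ferredoxin in mitochondria. In liver, families 1 to 4 are known for clearing drugs, plant compounds and other foreign chemicals and for oxidising fatty acids. Other families act on the body's own sterols: they make bile acids and cholesterol, activate vitamin D and break down retinoic acid. Many are made mainly in hepatocytes, and the foreign-compound enzymes mostly in those near the central vein. Their genes are classically induced through the nuclear receptors CAR, PXR and PPAR-alpha or through the aryl hydrocarbon receptor.

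Most P450 genes had positive log2 fold changes, a higher transcript level in SLICK than in FREE liver, and no single gene passed the test. In the authors' deposited table, 28 were positive (all genes: 48.2%) and 7 negative. The median over the 35 genes was 0.36 log2 units, against -0.01 over all 14161 genes. Relative to the median of 16 hepatocyte markers, an alternative chosen after seeing the data, it was 0.16. The test is an F test per gene, and edgeR is among the tools in the submitters' processing notes. At an adjusted p of 0.05, 0 of 35 genes passed in the authors' deposited table, where 0.501% of all genes did. At an adjusted p of 0.10, 4 genes passed (all genes: 2.77%), namely CYP3A4, CYP2E1, CYP2C87 and CYP2D14, all of them higher in SLICK (all genes: 0.826%). With unadjusted p values, 17 P450 genes of the authors' deposited table were under 0.05 and higher in SLICK (all genes: 7.22%), and 2 were under 0.05 and lower (all genes: 8.79%). These 17 made up 48.6% of the P450 genes.

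Families 1 to 4 held 15 of the 17 genes, which is 65.2% of their members (all genes: 7.22%). They also held 1 of the 2 lower genes (all genes: 8.79%), and their median log2 fold change was 0.46 over 23 genes. Of these 23, 20 were positive in the authors' deposited table (all genes: 48.2%). Families 7 and above had a median of 0.25 over 12 genes, 8 of them positive in the authors' deposited table. At an unadjusted p under 0.05, 2 of the 12 were higher in SLICK, or 16.7%, and 1 was lower. The groups also differ in level, as 14 of the 23 and 4 of the 12 averaged 6 log2 CPM or more. Among all genes at that level, 68.8% were positive and 21.5% were higher at an unadjusted p under 0.05. The difference between these 2 groups of families was not tested. Standard errors (SE) below are those that the size of the fold change and the F statistic of the authors' deposited table imply, with 95% intervals on 18.7 degrees of freedom. They are approximate, above all for genes of few reads. By these SE, the precision varied widely between P450 genes, from 0.06 log2 units for CYP20A1 to 0.71 for CYP4B1, with a median of 0.21.

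**Figure D1:**
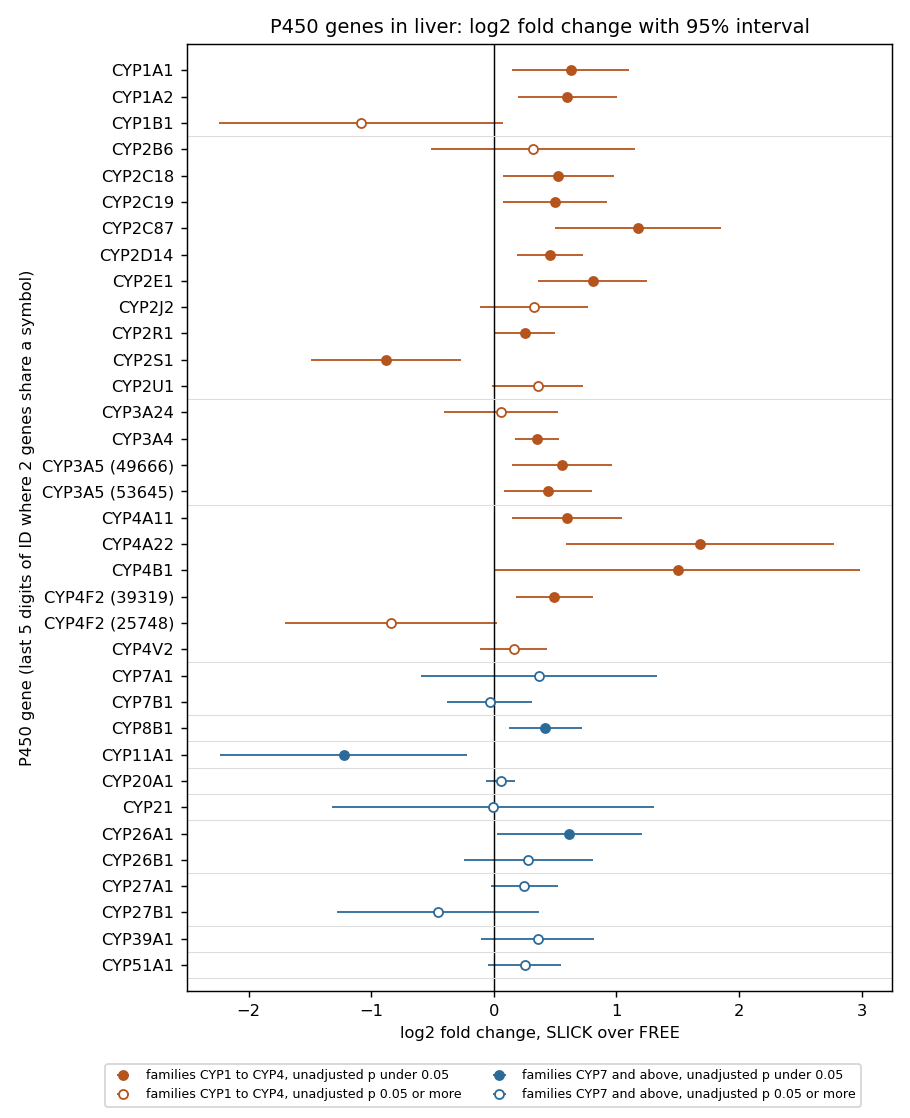
Log2 fold change of SLICK over FREE for each of the 35 P450 genes (x axis, log2 units), ordered by family from top to bottom; bars are 95% intervals implied by the deposited F statistic, and filled points have an unadjusted p under 0.05. Most points lie right of 0, with 28 genes positive and 7 negative, and the widest intervals belong to genes of low level such as CYP4B1 and CYP21.

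Levels spanned a wide range. Scaled to exon length, the averages ran from 0.0420 CPM (a gene's reads scaled to a fixed library total) per kb for CYP21 to 1978 CPM per kb for CYP2E1, as computed from the authors' deposited table. Such a level is the average over all compared libraries, so it has no spread between animals here. CYP2E1, which oxidises ethanol, acetone and other small molecules, made up 31.6% of the summed P450 level per kb. CYP1A2, which oxidises aromatic amines, followed with 1193 CPM per kb. A CYP3A5 gene (ENSBTAG00000053645) with 620 CPM per kb and CYP2C19 with 619 CPM per kb were next and nearly level with each other, followed by CYP1A1 with 381 CPM per kb. These 5 genes held 76.6% of the summed level, and all 5 were positive in the authors' deposited table with an unadjusted p under 0.05. Among all genes averaging 6 log2 CPM or more, as these 5 did, 68.8% were positive and 21.5% were higher at that p. The highest genes of the sterol families were CYP8B1, at 274 CPM per kb, and CYP27A1, at 180 CPM per kb. Of the 35 genes, 17 lay above the 90th percentile of all genes in level per kb.

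**Figure D2:**
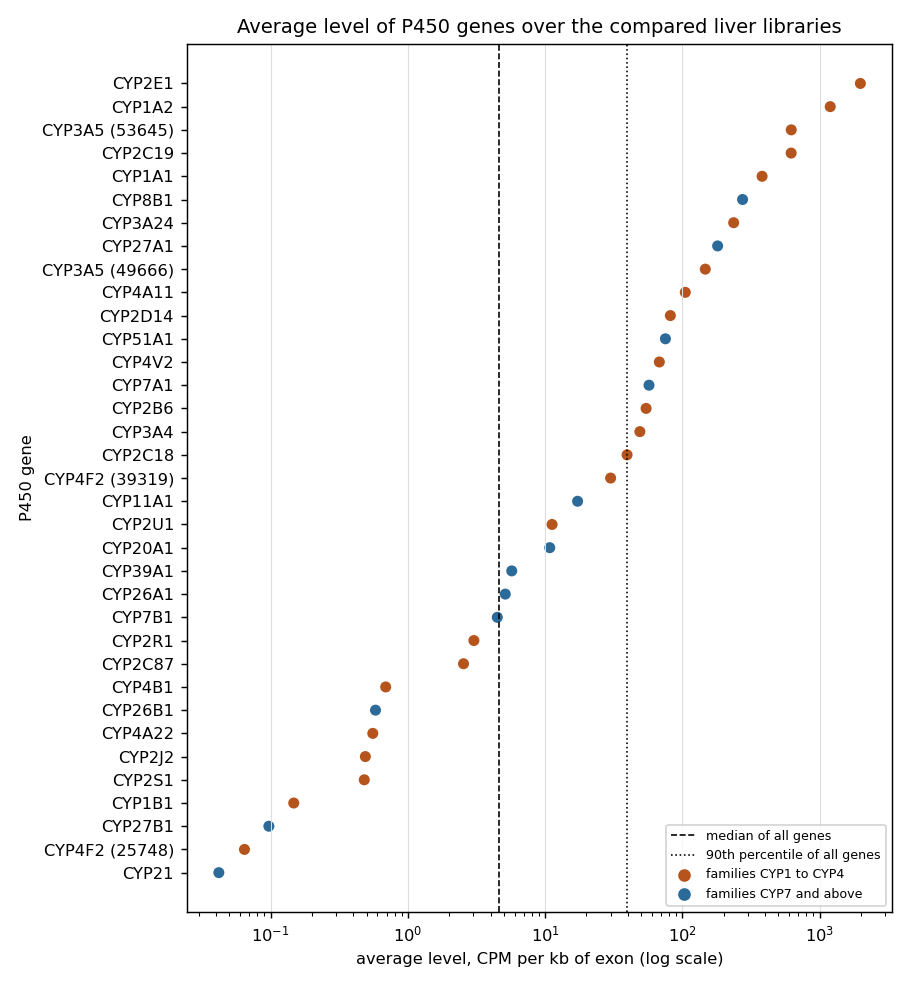
Average level of each P450 gene in CPM per kb of exon (x axis, log scale), from highest to lowest; the dashed and dotted lines mark the median and the 90th percentile of all genes, and colour marks families 1 to 4 and families 7 and above. CYP2E1 stands first at 1978 CPM per kb and CYP21 last at 0.0420 CPM per kb, with 17 genes right of the dotted line.

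Positive values were the rule among the abundant P450 genes. All 18 averaging 6 log2 CPM or more were positive in the authors' deposited table, 12 were higher and 0 lower at an unadjusted p under 0.05, and their median log2 fold change was 0.45. Among all 1937 genes at that level, 68.8% were positive and 21.5% were higher in SLICK at an unadjusted p under 0.05 in the authors' deposited table, with a median of 0.07. Abundant liver genes as a whole thus also leaned towards SLICK, and whether P450 genes did so more was not tested. Of the 9 P450 genes averaging under 2 log2 CPM, 4 were positive and 5 negative in the authors' deposited table, with a median of -0.01. Among all 4071 genes at that level, 40.3% were positive, with a median of -0.06, so the scarce P450 genes lay near their background in sign and median. At an unadjusted p under 0.05, 2 of the 9 were higher (all genes at that level: 3.22%) and 1 was lower (423 of 4071). Their log2 fold changes spread widely, from -1.08 for CYP1B1 to 1.68 for CYP4A22. Across the 35 genes, log2 fold change and log2 level per kb had a Pearson r of 0.32 and a Spearman rho of 0.41, against 0.19 and 0.22 across all genes; both quantities come from the same libraries, and genes are not independent replicates.

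**Figure D3:**
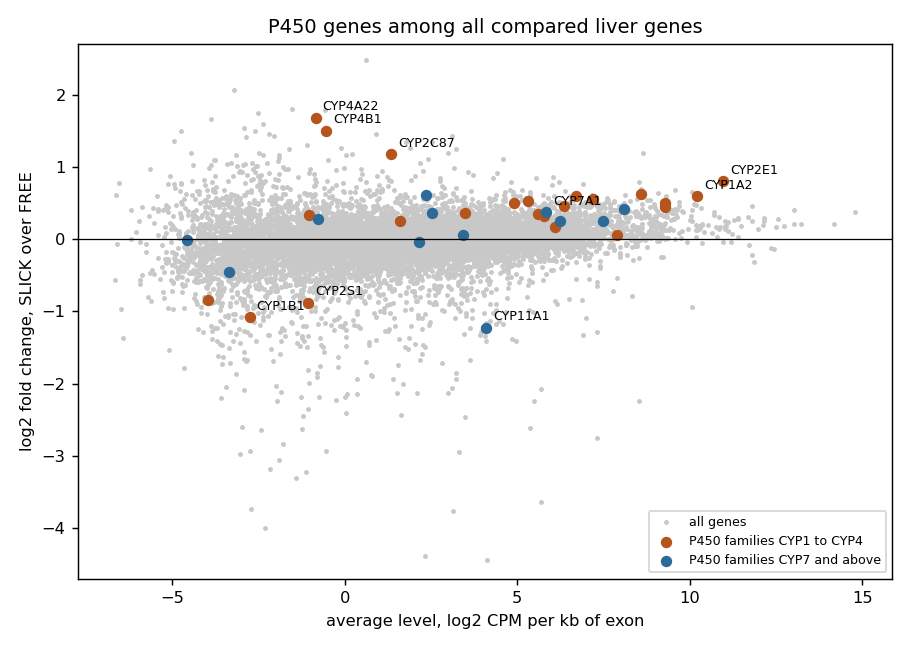
Log2 fold change of SLICK over FREE (y axis) against the average level in log2 CPM per kb of exon (x axis) for all 14161 genes (grey) and the 35 P450 genes (coloured by family group). The abundant P450 genes on the right sit above 0, while CYP11A1, CYP1B1 and CYP2S1 lie below it.

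Family 1 enzymes oxidise flat aromatic molecules and are induced by the aryl hydrocarbon receptor. CYP1A2 had a log2 fold change of 0.60 (SE 0.19) in the authors' deposited table, or 1.51-fold (interval 1.14 to 2.01, unadjusted p = 0.00603, adjusted p = 0.130). CYP1A1 had a log2 fold change of 0.63 (SE 0.23, adjusted p = 0.181) in the authors' deposited table. These neighbours on chromosome 21 had the same sign, and their intervals overlapped. CYP1B1, which in other mammals is expressed mainly outside the liver, had a log2 fold change of -1.08 (SE 0.55, adjusted p = 0.364) at 0.148 CPM per kb in the authors' deposited table. Its interval, -2.24 to 0.08, held 0.

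Family 2 is the largest family here, with 10 genes, of which 9 were positive in the authors' deposited table. CYP2E1 (chromosome 26, 50165123 to 50176103, ENSBTAG00000018365) had a log2 fold change of 0.81 (SE 0.21) in the authors' deposited table, or 1.75-fold (interval 1.29 to 2.38, unadjusted p = 0.00121, adjusted p = 0.0847). It was the most abundant P450 gene and had the largest positive log2 fold change among the 18 averaging 6 log2 CPM or more. CYP2C87, a bovine member of the CYP2C subfamily, had the larger log2 fold change of 1.18 (SE 0.32, adjusted p = 0.0911) in the authors' deposited table. Its level was much lower, 2.54 CPM per kb.

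The other CYP2C genes carry human names, CYP2C18 and CYP2C19, which in human denote enzymes of drug oxidation. Their log2 fold changes were 0.53 (SE 0.22, adjusted p = 0.241) and 0.50 (SE 0.20, adjusted p = 0.227) in the authors' deposited table. RefSeq (ARS-UCD2.0) lists these names as synonyms of CYP2C90 and CYP2C89, so the roles of the human enzymes may not carry over. CYP2D14, the bovine member of the CYP2D drug-oxidising subfamily, had a log2 fold change of 0.46 (SE 0.13, adjusted p = 0.0945) in the authors' deposited table. With a small SE, its interval of 0.19 to 0.73 lay wholly above 0.

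The rest of family 2 was less clear. CYP2R1, which carries out the first hydroxylation of vitamin D in liver, had a log2 fold change of 0.25 (SE 0.12, unadjusted p = 0.0496) in the authors' deposited table. CYP2U1, a fatty acid hydroxylase, had one of 0.36 (SE 0.18, unadjusted p = 0.0597) in the authors' deposited table. For CYP2B6, in human a drug oxidase and a classical target of CAR, the log2 fold change was 0.32 with an SE of 0.40 in the authors' deposited table, so that its interval ran from 0.70-fold to 2.22-fold. The scarce CYP2J2 (ENSBTAG00000051030) had a log2 fold change of 0.33 (SE 0.21, unadjusted p = 0.137) in the authors' deposited table. LOC530929, the gene that the count tables call CYP2J2, had one of 0.29 (unadjusted p = 0.00447, adjusted p = 0.116) in the authors' deposited table.

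CYP2S1 was the exception in family 2. This enzyme, which in human is found mainly in epithelia outside the liver, had a log2 fold change of -0.88 (SE 0.29) in the authors' deposited table, or 0.543-fold (interval 0.356 to 0.829). Its unadjusted p was 0.00701 and its adjusted p 0.139 in the authors' deposited table, at a level of 0.482 CPM per kb. Bile duct markers, listed further on, also had mostly negative values, and their part in the CYP2S1 value was not tested.

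Family 3 enzymes oxidise many drugs and steroids and are known targets of PXR. CYP3A4 had the smallest p of all 35 genes, with a log2 fold change of 0.35 (SE 0.09) in the authors' deposited table, or 1.28-fold (interval 1.12 to 1.45, unadjusted p = 7.29e-04, adjusted p = 0.0688). Its change was modest in size, and its p rests on a narrow SE. The gene named CYP3A5 with the ID ENSBTAG00000049666 had a log2 fold change of 0.56 (SE 0.19, adjusted p = 0.163) in the authors' deposited table. The more abundant CYP3A5 gene, ENSBTAG00000053645, had one of 0.44 (SE 0.17, adjusted p = 0.205) in the authors' deposited table. CYP3A24 was nearly level, with a log2 fold change of 0.06 (SE 0.22, interval -0.41 to 0.52) in the authors' deposited table. The intervals of all 4 CYP3A genes overlapped. In RefSeq, the name CYP3A4 is a synonym of CYP3A28 and CYP3A74, and CYP3A5 one of CYP3A28 and CYP3A76. Reads shared between such close copies may make single values uncertain, here and in the CYP2C, CYP4A and CYP4F genes, and this was not tested.

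Family 4 enzymes hydroxylate the end of fatty acid chains, and the CYP4A genes are textbook targets of PPAR-alpha. CYP4A11 had a log2 fold change of 0.59 (SE 0.21) in the authors' deposited table, or 1.51-fold (interval 1.11 to 2.06), with an adjusted p of 0.177. CYP4A22 had the largest positive log2 fold change of the 35 genes, 1.68 (SE 0.52, unadjusted p = 0.00446, adjusted p = 0.116), in the authors' deposited table. It was scarce, at 0.556 CPM per kb, and its interval ran from 1.51-fold to 6.83-fold. CYP4B1 had a log2 fold change of 1.50 (SE 0.71, unadjusted p = 0.0485) in the authors' deposited table, also at a low level of 0.690 CPM per kb.

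The 2 genes named CYP4F2, in human an enzyme that hydroxylates vitamins E and K and leukotrienes, had opposite signs. The abundant copy, ENSBTAG00000039319, had a log2 fold change of 0.49 (SE 0.15, adjusted p = 0.112, interval 0.18 to 0.81) in the authors' deposited table. The scarce copy, ENSBTAG00000025748, had one of -0.84 (SE 0.41, adjusted p = 0.342, interval -1.70 to 0.03) in the authors' deposited table. Their intervals did not overlap, but a test of the difference was not run, since it needs values per library. CYP4V2, a fatty acid hydroxylase known from an inherited retinal disease in human, had a log2 fold change of 0.16 (SE 0.13, unadjusted p = 0.228) in the authors' deposited table.

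Among the remaining genes, 5 serve bile acid synthesis. CYP8B1, the sterol hydroxylase that directs synthesis to cholic acid, had a log2 fold change of 0.42 (SE 0.14) in the authors' deposited table, or 1.34-fold (interval 1.09 to 1.64, unadjusted p = 0.00795, adjusted p = 0.150). CYP27A1, which hydroxylates the sterol side chain in mitochondria, had a log2 fold change of 0.25 (SE 0.13, unadjusted p = 0.0740) in the authors' deposited table. For CYP7A1, the rate-limiting enzyme of the classical pathway, the log2 fold change of 0.37 had an SE of 0.46 in the authors' deposited table, so that differences from 0.664-fold to 2.52-fold fell within its interval. CYP7B1, which acts on oxysterols in the alternative pathway, had a log2 fold change of -0.03 (SE 0.17) in the authors' deposited table, with an interval of -0.38 to 0.31. CYP39A1, another oxysterol hydroxylase, had one of 0.36 (SE 0.22, unadjusted p = 0.122) in the authors' deposited table. CYP8B1 alone of these 5 had an unadjusted p under 0.05 in the authors' deposited table, and differences between them were not tested.

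CYP51A1, the lanosterol demethylase of cholesterol synthesis, had a log2 fold change of 0.25 (SE 0.14, unadjusted p = 0.0908) in the authors' deposited table. CYP26A1, which breaks down retinoic acid, had one of 0.62 (SE 0.28, unadjusted p = 0.0416, adjusted p = 0.297) in the authors' deposited table. Its paralog CYP26B1 had a log2 fold change of 0.28 (SE 0.25, unadjusted p = 0.279) in the authors' deposited table, at the lower level of 0.581 CPM per kb, against 5.12 CPM per kb for CYP26A1. The interval of CYP26A1 just cleared 0, while that of CYP26B1 held it.

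CYP11A1 had the opposite sign to most P450 genes. It encodes the mitochondrial side-chain cleavage enzyme that turns cholesterol into pregnenolone, the first step of steroid hormone synthesis, which is best known from adrenal, gonad and placenta. For it, a log2 fold change of -1.23 (SE 0.48) stood in the authors' deposited table, or 0.428-fold (interval 0.212 to 0.862, unadjusted p = 0.0201, adjusted p = 0.215). This was the largest negative value of the 35 genes, at a level of 17.2 CPM per kb (79.5th percentile of all genes). Its SE was the widest of the members above the median level of all genes, and whether few animals carry the value was not tested. CYP11A1 lies on chromosome 21 from 34328403 to 34342900 in ARS-UCD1.2 (ENSBTAG00000006934). The ferredoxin FDX1, which passes electrons to it, is described below and had a positive log2 fold change.

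The last members were near 0 or scarce. CYP20A1, an enzyme of unknown substrate, had a log2 fold change of 0.06 (SE 0.06) in the authors' deposited table, and its interval of -0.06 to 0.17 was the narrowest of the 35 genes. CYP27B1, which activates vitamin D in kidney, had one of -0.46 (SE 0.39, unadjusted p = 0.260) in the authors' deposited table, at 0.0972 CPM per kb. CYP21, the adrenal steroid hydroxylase, had one of -0.01 (SE 0.63) in the authors' deposited table at the lowest level of all members, and its interval ran from 0.401-fold to 2.47-fold. For both scarce genes, CYP27B1 and CYP21, a level 2-fold lower in SLICK lay within the interval, so that a difference of that size was not excluded.

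Of the 35 genes, 17 lie within 1 Mb of another P450 gene, in 6 stretches of the ARS-UCD1.2 assembly. In 3 of these stretches, all members were positive in the authors' deposited table. They are the 4 CYP3A genes on chromosome 25 (36530341 to 36759920), CYP2C18, CYP2C87 and CYP2C19 on chromosome 26 (16075794 to 16520974), and CYP4A11, CYP4A22 and CYP4B1 on chromosome 3 (99208577 to 99358612). In the other 3 stretches, signs were mixed in the authors' deposited table. On chromosome 21, the positive CYP1A2 and CYP1A1 lie 28.5 kb apart by their starts, with the negative CYP11A1 further along the same 419.8 kb. On chromosome 18, CYP2B6 and CYP2S1 span 103 kb from end to end, with CYP2B6 positive and CYP2S1 negative. The CYP4F2 pair on chromosome 7 spans 182 kb. These signs describe 6 stretches and were not tested.

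**Figure D4:**
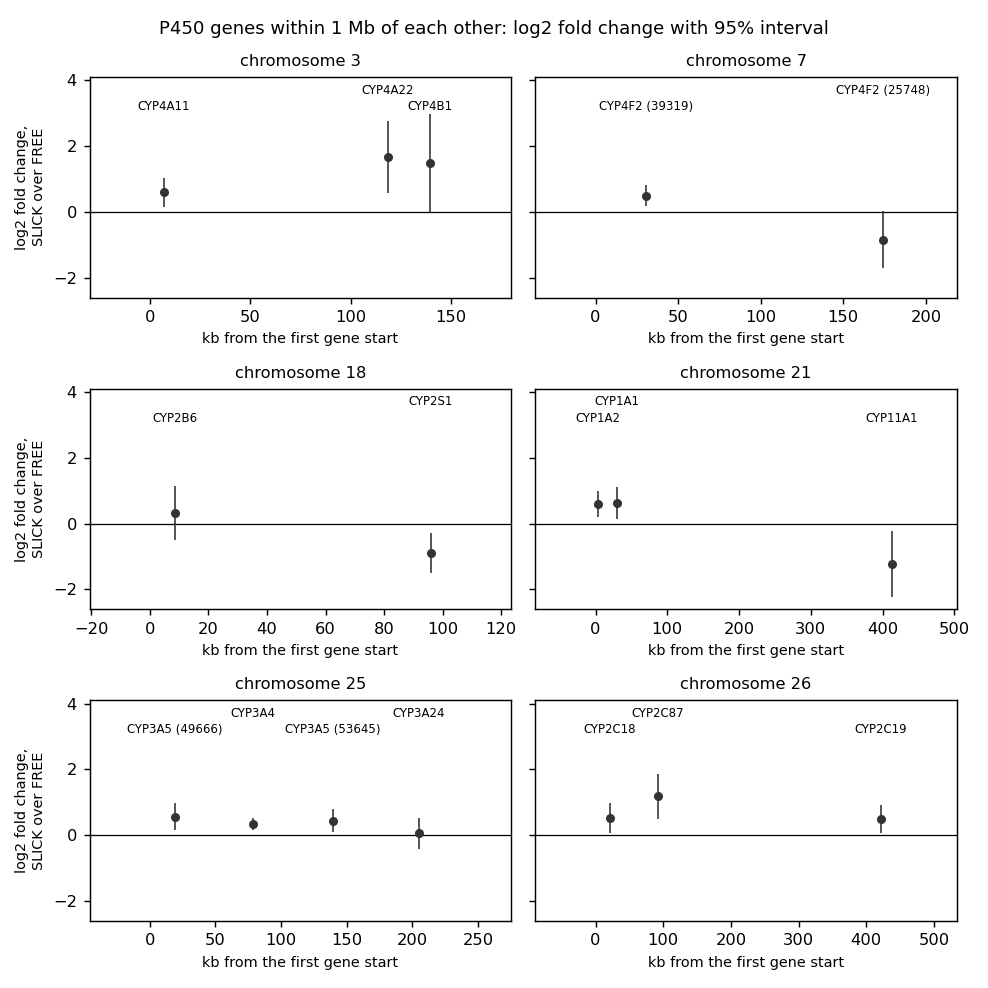
Log2 fold change of SLICK over FREE with its 95% interval (y axis) for the 17 P450 genes that lie within 1 Mb of another, by distance in kb from the start of the first gene of each stretch to the middle of each gene (x axis), one panel per chromosome. On chromosomes 3, 25 and 26 all points lie above 0, and on chromosomes 7, 18 and 21 the last gene lies below it.

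Most partners of the P450 enzymes had positive values too. Of 9 genes, electron donors together with the heme-binding partners PGRMC1 and PGRMC2, 8 were positive in the authors' deposited table. In that table, 4 of the 9 were higher at an unadjusted p under 0.05, PGRMC1 among them, and 0 passed the adjusted p. The median log2 fold change was 0.21. Of the 9 genes, 7 averaged 6 log2 CPM or more, a level at which 68.8% of all genes were positive and 21.5% were higher at an unadjusted p under 0.05 in the authors' deposited table. POR, the reductase that serves all P450 enzymes of the endoplasmic reticulum, had a log2 fold change of 0.37 (SE 0.12, unadjusted p = 0.00681) in the authors' deposited table. FDX1, the ferredoxin of the mitochondrial P450 enzymes, had one of 0.35 (SE 0.09, unadjusted p = 7.45e-04, adjusted p = 0.0698) in the authors' deposited table. PGRMC1, a heme-binding P450 partner, had one of 0.33 (SE 0.12, unadjusted p = 0.0173) there. FDX1 and CYP11A1, partners in one reaction, thus had opposite signs.

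Heme synthesis and breakdown genes did not lean one way, with 7 positive and 5 negative of 12 in the authors' deposited table and a median log2 fold change of 0.03. At an unadjusted p under 0.05, 3 were higher (all genes: 7.22%) and 2 lower (all genes: 8.79%) in the authors' deposited table, and 0 passed the adjusted p. The higher genes make heme: ALAS1, the rate-limiting enzyme of heme synthesis in liver, had a log2 fold change of 0.58 (SE 0.20, unadjusted p = 0.00855) in the authors' deposited table. UROD had one of 0.38 (SE 0.12, unadjusted p = 0.00417) and FECH, which inserts the iron, one of 0.26 (SE 0.09, unadjusted p = 0.0103) in the authors' deposited table. The lower genes belong to the heme breakdown pathway: the biliverdin reductase BLVRA had one of -0.42 (SE 0.13, unadjusted p = 0.00321) and the heme oxygenase HMOX2 one of -0.23 (SE 0.09, unadjusted p = 0.0185) in the authors' deposited table. All 7 positive genes make heme, but UROS, which also makes heme, had the most negative value of the list, -0.45 (SE 0.31, unadjusted p = 0.161). A difference between synthesis and breakdown was not tested.

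Regulators of P450 genes showed no common direction, with 17 positive and 13 negative of 30 in the authors' deposited table (2 further listed genes, AHRR and CEBPA, were not among the genes compared). At an unadjusted p under 0.05, 6 were higher, 20% of the list (all genes: 7.22%), and 3 were lower (all genes: 8.79%) in the authors' deposited table. The 1 gene past the adjusted p (all genes: 0.501%) was the vitamin D receptor VDR, which fell in SLICK by 1.33 log2 units (SE 0.22, adjusted p = 0.0210) in the authors' deposited table. VDR was scarce, at 0.213 CPM per kb. NR1I3, which encodes CAR, had a log2 fold change of 0.37 (SE 0.11, unadjusted p = 0.00300, adjusted p = 0.104) in the authors' deposited table, and PPARA had one of 0.30 (SE 0.11, unadjusted p = 0.0158). For NR1I2, which encodes PXR, the log2 fold change was 0.14 (unadjusted p = 0.188), and for AHR it was 0.07 (unadjusted p = 0.716), in the authors' deposited table. For these 2 regulators the test gave no call in either direction. The median of the 30 genes was 0.05.

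Enzymes that work beside P450 had medians near that of the P450 genes. All 12 flavin monooxygenases, epoxide hydrolases and other oxidases and esterases listed were positive in the authors' deposited table, with 5 higher at an unadjusted p under 0.05, 0 past the adjusted p, and a median log2 fold change of 0.32. Of these 12 genes, 9 averaged 6 log2 CPM or more, against which the 68.8% positive and 21.5% higher among all genes at that level are to be read. FMO4 had a log2 fold change of 0.34 (SE 0.09, unadjusted p = 0.00188), and FMO1 one of 0.54 (SE 0.16, unadjusted p = 0.00289), in the authors' deposited table. All 8 bile acid enzymes measured outside the P450 family were positive and 7 were higher at an unadjusted p under 0.05 in the authors' deposited table, with a median of 0.36 and 0 past the adjusted p. Of these 8 genes, 7 averaged 6 log2 CPM or more. Among the P450 genes of the same pathway, 1 of 5 had an unadjusted p under 0.05. HSD17B4 (0.49, unadjusted p = 0.00650) and AKR1D1 (0.55, unadjusted p = 0.00903) had the smallest p of this list in the authors' deposited table, given as log2 fold changes.

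Cholesterol synthesis genes other than CYP51A1 were all positive, 18 of 18 in the authors' deposited table, with a median log2 fold change of 0.17, 3 higher at an unadjusted p under 0.05 and 0 past the adjusted p. Those 3 are 16.7% of the list, below the 21.5% among all genes averaging 6 log2 CPM or more, as 17 of the 18 did. EBP, a sterol isomerase, had the smallest p, at a log2 fold change of 0.43 (unadjusted p = 0.00358) in the authors' deposited table. Vitamin A handling genes, the pathway of CYP26A1, had a median of 0.11 over 12 genes, with 10 positive, 1 higher (all genes: 7.22%) and 1 lower (all genes: 8.79%) at an unadjusted p under 0.05 and 0 past the adjusted p in the authors' deposited table. The retinoic acid carrier CRABP1 was the lower one, with a log2 fold change of -1.48 (SE 0.52, unadjusted p = 0.0100), and RDH16 the higher one, with 0.31 (SE 0.13, unadjusted p = 0.0253), in the authors' deposited table.

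**Figure D5:**
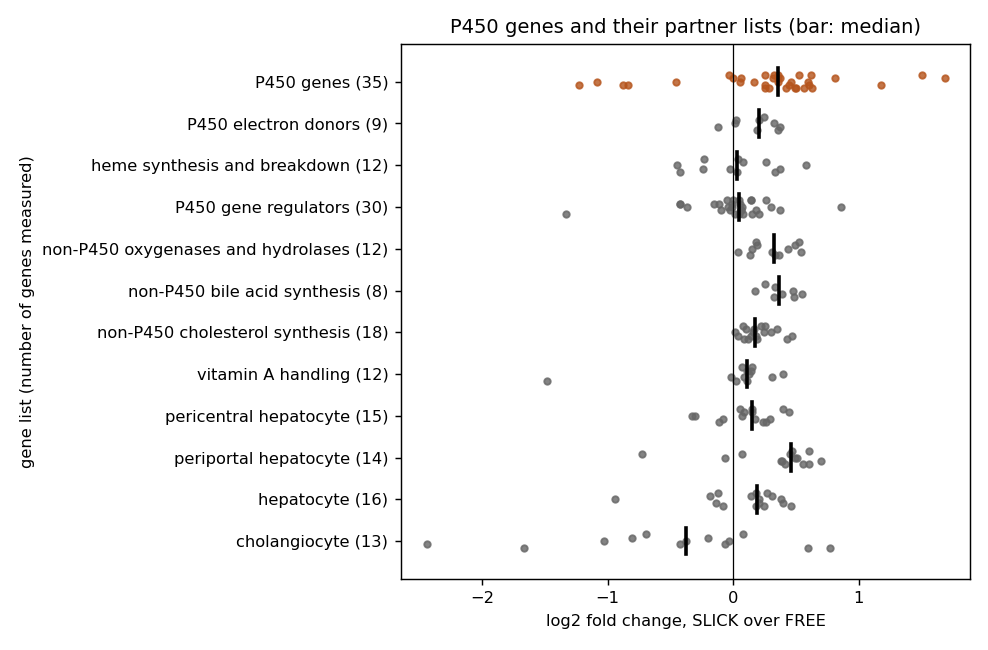
Log2 fold change of SLICK over FREE (x axis) for each gene of the P450 family and of 11 lists of partner and marker genes, one row per list with the number of genes measured; points are genes and black bars are medians. The P450 median is 0.36, the periportal median 0.46 and the pericentral median 0.15, while cholangiocyte markers lie mostly left of 0 with a median of -0.38. The row of electron donors also holds the heme-binding partners PGRMC1 and PGRMC2.

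Markers of liver cell types give the setting of the P450 values. ALB, the defining marker of hepatocytes, averaged 15.87 log2 CPM in the authors' deposited table, the highest of all genes compared. Hepatocyte markers had a median log2 fold change of 0.19 over 16 genes, with 11 positive, 3 higher at an unadjusted p under 0.05 and 0 past the adjusted p in the authors' deposited table. All 16 averaged 6 log2 CPM or more, where 68.8% of all genes were positive and 21.5% were higher. The markers, at 68.8% and 18.8%, thus lay near that background. Among P450 genes, 25 lay above the hepatocyte marker median and 10 below, and the intervals of 26 held it. In bulk liver, fewer cells of a type and less RNA per cell cannot be told apart. Pericentral markers other than P450 genes, from the zone where most foreign-compound P450 enzymes are made, had a median of 0.15 over 15 genes, with 2 higher (all genes: 7.22%) and 0 lower (all genes: 8.79%) at an unadjusted p under 0.05 in the authors' deposited table. GLUL, a defining marker of that zone, had a log2 fold change of -0.31 (SE 0.22, unadjusted p = 0.176) in the authors' deposited table. Periportal markers, from the opposite end of the lobule, had the larger median of 0.46 over 14 genes, with 8 higher (all genes: 7.22%) and 0 lower (all genes: 8.79%) at an unadjusted p under 0.05 in the authors' deposited table. Of these 14 genes, 11 averaged 6 log2 CPM or more, where 21.5% of all genes were higher. The urea cycle gene ASS1 had a log2 fold change of 0.60 (SE 0.14, unadjusted p = 3.91e-04, adjusted p = 0.0575) in the authors' deposited table. Both zones thus had positive medians, ALB is also in the periportal list, and a difference between the zones was not tested.

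Cholangiocyte markers had a median of -0.38 over 13 genes, with 6 lower (all genes: 8.79%) and 1 higher (all genes: 7.22%) at an unadjusted p under 0.05 and 0 past the adjusted p in the authors' deposited table. Their log2 fold changes ran from -2.44 for SPP1 (SE 0.57) to 0.77 for MUC1 (SE 0.63, unadjusted p = 0.236) in the authors' deposited table. MUC1 was scarce, at 0.0375 CPM per kb. Medians of the other cell type lists in the authors' deposited table were 0.09 for 12 macrophage genes, 0.12 for 10 endothelial genes, -0.03 for 12 stellate cell and fibroblast genes and 0.04 for 12 T and NK cell genes. They were -0.05 for 8 B and plasma cell genes, -0.18 for 7 neutrophil genes and 0.25 for 3 erythroid genes, and 0 genes of these 7 lists passed the adjusted p. At an unadjusted p under 0.05, 3 B and plasma cell genes, 2 neutrophil, 2 macrophage, 2 stellate cell and fibroblast and 1 erythroid gene were lower in SLICK in the authors' deposited table (all genes: 8.79%). The 3 erythroid genes were scarce, averaging from -2.22 to -0.29 log2 CPM. At the same unadjusted p, 1 endothelial gene was higher (all genes: 7.22%), and no other gene of the 7 lists was. Their part in the P450 values was not tested, since it needs values per library.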

How the data were processed

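Bovine liver RNA was sequenced from TruSeq (18 samples) or SMARTer (16 samples) libraries, per the labels' protocols. Tools named without roles in the submitters' processing notes are edgeR, featureCounts, Subread and HISAT2 2.1.0, with the build ARS-UCD1.2. For SLICK against FREE, the authors deposited the p-value of each gene, unadjusted and adjusted, with its F score, log2 fold change and log2 average CPM. Other annotation values used are gene lengths and positions, deposited with the count tables (featureCounts 1.6.2 with Ensembl release 100 gene models in the SMARTer header). The 70 columns of per-library values in 4 tables carry animal names found in no sample label, and none was used. Of 18 animal names in the comparison, 17 recur in the TruSeq count table, so it is unknown whether the comparison rests on the 18 labelled samples. The planned fits on counts, S2 against S1, leaving out replicates, and depth were therefore not run. Promoter motifs and coding lengths were not analysed here.

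Of 14246 rows, 85 repeat a gene under another symbol, and 14161 genes were kept. The adjusted p is the authors', over their whole table. SE is the size of the log2 fold change over the square root of F. Degrees of freedom (18.7) were solved from F and p and were the same in the 32 members with F over 0.5. The 18 library columns of the comparison carry separate animal names, so the p-values refer to the spread between those libraries. The 18.7 degrees of freedom exceed what 18 libraries alone can give. The p-values and SE thus do not rest only on each gene's own spread. The level per kb is the average CPM over exon length, equal in both count tables for all 35 genes. Genes were named by rule: up to 3 per P450 family by smallest p, the 5 highest levels, the 3 largest changes in each direction, and the rest in brief; of each other list up to 3 genes. GLUL, NR1I2, AHR, PPARA, SPP1, MUC1, FECH, HMOX2 and UROS were named with their values known. Of the pericentral list only GLUL was named, and its p was not among the 3 smallest. The members and lists were chosen with earlier results of these data known. Computation used Python 3.11.15, numpy 2.4.6, pandas 2.3.3, scipy 1.17.1 and matplotlib 3.10.9, and was tested on simulated data.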

Additional observations from a re-analysis of the deposited data

How the results depend on the processing

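No P450 gene passed the adjusted p of 0.05 in the authors' table, nor with p re-adjusted over genes averaging at least 0 or 2 log2 CPM or over the 14161 genes kept (lowest adjusted p from 0.0641 to 0.0675), nor after centring on the median of all genes. At a threshold of 0.10, 4 genes passed (all genes: 2.77%). The count at an unadjusted p under 0.05 was 19 of 35, 17 higher (all genes: 7.22%) and 2 lower (all genes: 8.79%). Of the 30 members averaging at least 0 log2 CPM, 16 were higher and 2 lower (all genes at that level: 7.91% and 8.72%). Of the 26 averaging at least 2 log2 CPM, 15 were higher and 1 lower (all genes at that level: 8.83% and 8.15%). Chosen after seeing the data, the count was 12 of 18 for members averaging 6 log2 CPM or more, all higher (all genes at that level: 21.5%). It was 5 of 15 outside CYP2, CYP3 and CYP4, with 4 higher (all genes: 7.22%) and 1 lower (all genes: 8.79%). This count was also chosen after seeing the data, and the cause was not tested. The median log2 fold change of 0.36 stayed positive in every setting run, but level filters and centring could hardly change its sign. Level filters left out scarce members, whose median under 2 log2 CPM was -0.01, and centring used an all-gene median of -0.01. The P450 median was lowest relative to the hepatocyte marker median, chosen after seeing the data, at 0.16. It was highest at 0.45 for those averaging 6 log2 CPM or more. Outside CYP2, CYP3 and CYP4 it was 0.25. No paired analysis was possible because the library columns carry no replicate number or sample name. For the same reason, leaving out replicates was not run, so whether 1 animal carries a value is unknown. Levels by coding length were not run. Depth per library was not used, and precision is known only as the deposited F statistic implies it.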
